A study of Mus musculus with 6 samples.

Results

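The 10 genes described here encode the classical pathway by which a cell shows fragments of its own proteins at its surface. They were the rows of the deposited count table whose Ensembl ID carries the symbol H2-K1, H2-D1, H2-T23, B2m, Tap1, Tap2, Tapbp, Psmb8, Psmb9 or Nlrc5, and all 10 were found among 57180 gene IDs. RNA had been sequenced from adipose tissue macrophages sorted, per the design text, on F4/80 and CD11b out of white adipose tissue of wild-type mice. There were 3 libraries from mice on a high-fat diet with magnesium isoglycyrrhizinate (HFD+MGIG), a magnesium salt of isoglycyrrhizic acid, and 3 from mice on the high-fat diet alone (HFD), so every mouse had been fed that diet. The design sets the compound against the diet alone. Strain, sex, age, diet length, dose, route and batch are not given in the labels, nor whether each library was a separate animal. The p-values set a group difference against the scatter between libraries, part of which may be technical. They may therefore not speak for variation between animals.

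MHC class I molecules consist of a polymorphic heavy chain and the invariant light chain beta-2-microglobulin. Cytosolic proteins are cut by the proteasome, in immune cells largely by the immunoproteasome with its exchanged catalytic subunits. The peptides are pumped into the endoplasmic reticulum by the TAP transporter, fitted into new heavy chains with the help of tapasin, and carried to the cell surface, where CD8 T cells and NK cells read them. Interferon raises transcription of nearly the whole pathway, and NLRC5 is the transactivator that acts on class I promoters. Macrophages carry class I as almost all nucleated cells do, endothelial cells included, so the genes mark a function and not a cell type.

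In mm10 coordinates, 8 of the 10 genes lie in the MHC region of chromosome 17. Tapbp is at 33915899 to 33929292, H2-K1 at 33996017 to 34000347, Psmb9 at 34181987 to 34187764, Tap1 at 34187553 to 34197225, Psmb8 at 34197721 to 34201454 and Tap2 at 34203527 to 34216321. H2-D1 is at 35262730 to 35267499 and H2-T23 at 36029773 to 36032855. B2m is on chromosome 2 at 122147686 to 122153083, and Nlrc5 on chromosome 8 at 94434356 to 94527272. Psmb9 and Tap1 are transcribed away from each other, and their annotated exons overlap by 212 bases on opposite strands, 5.79% of the exon length of Psmb9. No strand is stated for the counts, so reads in that overlap cannot be assigned. Of the exon length of Tapbp, 24.9% overlaps an antisense gene.

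The promoters of the heavy chains and of B2m are shown because they carry elements known from class I genes and let the near-identical H2-K1 and H2-D1 be compared. RefSeq promoter windows (GRCm38.p6) existed for 8 of the 10 genes, not for Tap2 and Nlrc5. The 250 bases before each start were searched on both strands for a kappa B site (GGGGA, any base, TCCCC), an interferon response element core (GAAA, any 2 bases, GAAA), the X2 box (TGACGC or TGACGT) and the CCAAT pentamer found in Y boxes, none of which overlapped another in these windows. Capitals mark the matches.
H2-K1: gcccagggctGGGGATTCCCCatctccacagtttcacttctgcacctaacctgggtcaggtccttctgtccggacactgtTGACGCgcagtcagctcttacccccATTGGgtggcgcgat
H2-D1: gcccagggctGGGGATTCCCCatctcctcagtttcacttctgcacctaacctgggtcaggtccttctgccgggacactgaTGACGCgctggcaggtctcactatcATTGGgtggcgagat
H2-T23: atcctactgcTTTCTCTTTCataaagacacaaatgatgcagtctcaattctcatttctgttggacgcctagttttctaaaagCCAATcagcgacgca
B2m: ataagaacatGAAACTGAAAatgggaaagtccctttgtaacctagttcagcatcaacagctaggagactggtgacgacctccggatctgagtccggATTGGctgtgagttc
These stretches are chr17:34000349-34000468 on the minus strand for H2-K1, chr17:35262913-35263032 on the plus strand for H2-D1, chr17:36032739-36032835 on the minus strand for H2-T23 and chr2:122147538-122147648 on the plus strand for B2m. The H2-K1 and H2-D1 stretches had 108 of 120 bases in common, with 59 bases between the kappa B site and the X2 box and 19 bases between the X2 box and the CCAAT match in each. Only these 2 of the 8 windows held the kappa B or the X2 letters. The exact letters GAAA, any 2 bases, GAAA stood in the windows of H2-T23 and B2m. Other forms of an interferon element were not searched for, so their absence from the H2-K1 and H2-D1 windows is not shown. CCAAT stood in the windows of 7 of the 8 genes, all but Psmb8. Among the 32851 promoter windows in the table, 0.0457% held the kappa B letters, 2.98% the interferon element letters, 11.9% an X2 box and 33.8% the CCAAT pentamer.

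Psmb9 and Tap1 are shown together because their RefSeq starts lie 226 bases apart, so that the bases between them lie before both. In the GENCODE models used for the positions above, Psmb9 reaches further, and this stretch lies within it.
Psmb9-Tap1: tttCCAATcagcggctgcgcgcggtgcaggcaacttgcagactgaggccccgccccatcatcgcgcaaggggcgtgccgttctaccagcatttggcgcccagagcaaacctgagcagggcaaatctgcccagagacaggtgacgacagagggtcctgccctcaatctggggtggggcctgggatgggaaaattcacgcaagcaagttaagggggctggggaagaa
This is chr17:34187331-34187555, written on the strand of Tap1, and it held 1 CCAAT match and none of the other letters searched for. A match describes letters in this window and is not a measured binding site.

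The libraries of the groups differed in depth and make-up. Total counts ranged from 2214367 to 4904167 in HFD+MGIG and from 14437531 to 16740374 in HFD. Receptor, keratin-associated and defensin gene families taken as silent in macrophages, 1599 genes, held 2.94% to 6.43% of counts in HFD+MGIG and 0.0624% to 0.280% in HFD, with no overlap, so library make-up and treatment cannot be told apart. HFD+MGIG 2 stood apart with the lowest total and the highest of these shares. Each gene was therefore set beside a background bound. The bound is its exon length times the count per kb that 90% of the silent-family genes in that library did not exceed. Fold changes were taken from 2 fits, one over all 23053 genes that passed the low-count filter and one over 2608 protein-coding genes whose bound was at most 0.25 of their mean level in the 6 libraries (background-limited genes), which has its own scale.
The 15 macrophage markers summed to 7241 to 18700 CPM (counts scaled to a common library total) in HFD+MGIG and 17150 to 19380 CPM in HFD. The 14 endothelial markers summed to 597 to 1163 CPM in HFD+MGIG and 2980 to 3414 CPM in HFD. In the background-limited fit 8 of the 9 were called lower, where 6.25% of all genes were. Of these, Cdh5, Pecam1, Tie1, Tek, Ptprb and Eng passed the background filter through HFD. Their bounds in HFD+MGIG exceeded 0.25 of their mean there, as for Tie1 at 23.2 CPM with a bound of 31.5 CPM. These calls are therefore not made among genes with little background in HFD+MGIG. Esam and Plvap were within the limit there, Plvap at 182 CPM with a bound of 12.7 CPM. The 8 fibroblast markers summed to 1287 to 1943 CPM in HFD+MGIG and 2576 to 3985 CPM in HFD (3 of 6 tested were called lower). The 8 adipocyte markers summed to 1934 to 2693 CPM in HFD+MGIG and 4262 to 6644 CPM in HFD (1 of 5 was called lower). The fibroblast calls, Col1a1, Col1a2 and Col3a1, were over the 0.25 limit in HFD+MGIG too, Col3a1 at 221 CPM with a bound of 62.8 CPM. The adipocyte call, Car3, was within it, at 219 CPM with a bound of 18.3 CPM. The 8 NK cell markers summed to 74.2 to 114 CPM in HFD+MGIG and 40.1 to 44.2 CPM in HFD. The 10 T cell markers summed to 69.2 to 131 CPM in HFD+MGIG and 60.8 to 71.4 CPM in HFD. Of the NK and T cell markers 0 are background-limited. Their bounds ranged from 0.447 (Nkg7) to 3.317 (Eomes) of the mean level for NK cells. For T cells they ranged from 0.419 (Cd2) to 4.205 (Cd8a). The higher sums in HFD+MGIG are therefore no evidence of more NK or T cell RNA. In such bulk libraries fewer cells of a type and less RNA per cell cannot be told apart, and the part of other cell types in the values below was not tested.

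As a share of all counts, the class I genes together were lower in the HFD+MGIG libraries. Among the background-limited genes, the summed share of the 7 members in that set overlapped between the groups. Genes of that set can still carry background in HFD+MGIG, as Tap2 did at 38.0 CPM with a bound of 24.2 CPM. Tap1, Psmb9 and Nlrc5 are not in that set, and Tapbp and Tap2 had fold changes below 0 there. The 10 genes together held 0.335% to 0.763% of counts in HFD+MGIG and 0.828% to 0.937% in HFD. For 7 of the 10 all HFD+MGIG libraries lay below all HFD libraries in CPM, which 23.7% of all filtered genes also did. Of the 7 members that are background-limited 6 did so, against 68% of all background-limited genes. For each of the 10 genes the lowest CPM was in HFD+MGIG 2. Within the counts of background-limited genes the share of those 7 members was 1.20% to 1.55% in HFD+MGIG and 1.30% to 1.44% in HFD, so the groups overlapped.

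**Figure D1:**
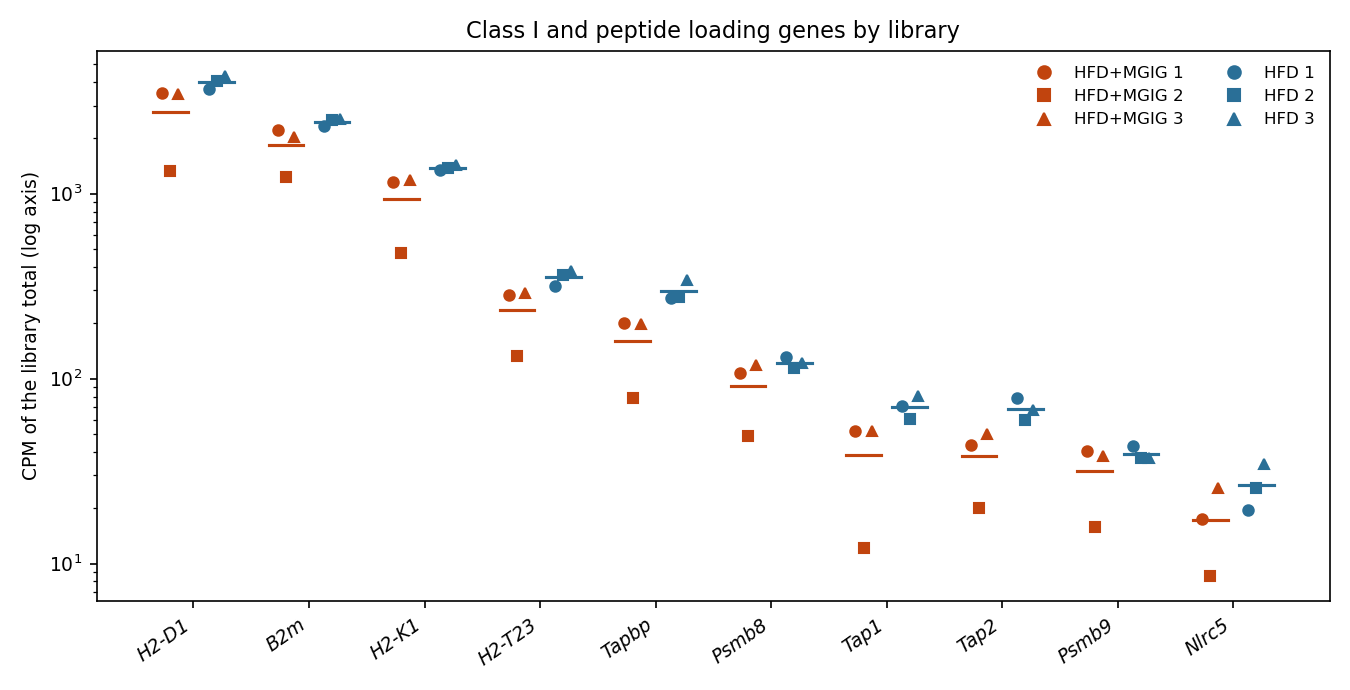
CPM of the library total (log axis) of the 10 genes in the 3 HFD+MGIG and 3 HFD libraries, with bars at the group means. HFD+MGIG 2 is the lowest point of every gene, and for H2-K1 it lies at 479 CPM with the other HFD+MGIG libraries at 1150 and 1187 CPM.

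The heavy chains were abundant, and the proportions of H2-K1, H2-D1 and H2-T23 to each other were alike in both groups. H2-K1 encodes the classical class I heavy chain of the K locus. It had 1150, 479 and 1187 CPM in HFD+MGIG 1, 2 and 3, against 1337, 1372 and 1426 CPM in HFD 1, 2 and 3. On the scale of the background-limited genes its CPM were 2257, 1801 and 2625 in HFD+MGIG and 2035, 2108 and 2191 in HFD. The HFD libraries there lay between the lowest and the highest HFD+MGIG library. The log2 fold change was 0.079 (95% interval −0.29 to 0.45; edgeR adjusted p = 0.786).

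H2-D1, the classical heavy chain of the D locus, was the member with the most counts. It had 3514, 1322 and 3459 CPM in HFD+MGIG and 3693, 4070 and 4346 CPM in HFD. On the background-limited scale the values were 6896, 4973 and 7646 CPM in HFD+MGIG and 5619, 6254 and 6680 CPM in HFD. The groups overlapped there, with HFD+MGIG 2 below and HFD+MGIG 1 and 3 above every HFD library (log2 fold change 0.074, 95% interval −0.34 to 0.49; edgeR adjusted p = 0.825). H2-T23 encodes Qa-1, a nonclassical heavy chain that shows leader peptides of other class I chains to the NK receptor CD94/NKG2A. It had 282, 133 and 290 CPM in HFD+MGIG and 319, 363 and 382 CPM in HFD, and on the background-limited scale 554, 501 and 641 CPM in HFD+MGIG and 485, 557 and 586 CPM in HFD (0.061, 95% interval −0.27 to 0.39; edgeR adjusted p = 0.815). H2-K1, H2-D1 and H2-T23 thus showed the same order of libraries within HFD+MGIG, with replicate 2 lowest and replicate 3 highest on that scale. The order was not particular to the heavy chains, as Tapbp, Tap2 and Psmb8 had it too, while B2m did not.

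The log2 ratio of H2-K1 to H2-D1 counts, which does not depend on any scaling, was −1.61, −1.46 and −1.54 in HFD+MGIG and −1.47, −1.57 and −1.61 in HFD. The group means differed by 0.008 (two-sided exact permutation p = 0.9), less than the SD of 0.073 in HFD+MGIG and 0.074 in HFD. That of H2-T23 to H2-D1 averaged −3.51 ± 0.18 in HFD+MGIG and −3.51 ± 0.023 in HFD (SD, n = 3 each; exact permutation p = 1). Class I heavy chain genes are near-identical copies of each other, and it is not stated how reads that match several of them were counted, so a split between such genes is uncertain.

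B2m, the light chain that every one of these heavy chains needs to reach the surface, was the most abundant member per kb. It had 2218, 1235 and 2032 CPM in HFD+MGIG and 2321, 2494 and 2527 CPM in HFD. On the background-limited scale it had 4354, 4645 and 4491 CPM in HFD+MGIG and 3531, 3833 and 3884 CPM in HFD. Every HFD+MGIG library was above every HFD library there, as for 16.9% of the background-limited genes, and HFD+MGIG 2 was the highest of all. Of the 7 background-limited members 0 lay below without overlap on that scale, as 17% of the genes did. The log2 fold change of 0.26 (95% interval −0.029 to 0.55; edgeR adjusted p = 0.245) did not pass the threshold. After a correction for GC content and exon length in each library it had the other sign, −0.25 (edgeR adjusted p = 0.430), and B2m has the lowest GC content of the 10 genes, 41.2%, and the shortest exon length, 860 bases.
The ratio of H2-K1 and H2-D1 counts together to B2m counts had log2 values of 1.07, 0.54 and 1.19 in HFD+MGIG and 1.12, 1.13 and 1.19 in HFD. HFD+MGIG 2 alone was low, and the group means differed by −0.21 (exact permutation p = 0.5), or −0.012 without that library.

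**Figure D2:**
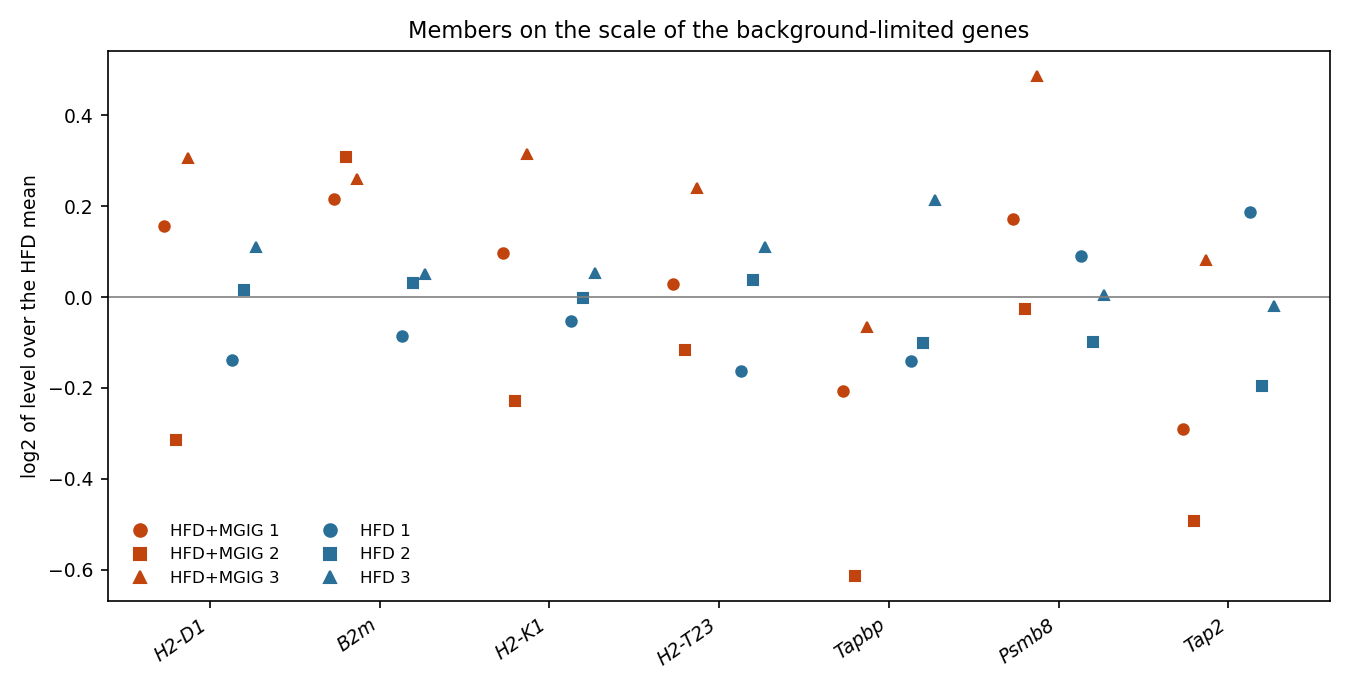
Level of the 7 background-limited members in each library relative to the HFD mean (log2), on the scale of the background-limited genes, with HFD+MGIG left of HFD for each gene. B2m is the gene whose groups are apart, and HFD+MGIG 2 is the lowest library for H2-D1, H2-K1, Tapbp and Tap2.

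Tapbp and Tap2 had fold changes below 0 on the background-limited scale, and above 0 after the correction for GC content and exon length. Tapbp encodes tapasin, which bridges the transporter and the empty heavy chain. It had 201, 79.0 and 197 CPM in HFD+MGIG and 271, 276 and 343 CPM in HFD. On the background-limited scale that was 394, 297 and 435 CPM in HFD+MGIG and 413, 424 and 528 CPM in HFD, where the highest HFD+MGIG library lay among the HFD libraries. The log2 fold change was −0.27 (95% interval −0.67 to 0.13; edgeR adjusted p = 0.367). It was 0.021 after the correction for GC content and exon length.
The log2 ratio of Tapbp to H2-D1 counts was −4.13, −4.06 and −4.14 in HFD+MGIG and −3.77, −3.88 and −3.66 in HFD, so the groups did not overlap. The difference was −0.34, larger than the SD of 0.043 in HFD+MGIG and 0.11 in HFD. Its exact permutation p was 0.1, the smallest that 3 against 3 libraries allow, and 0.333 after adjustment over the 10 ratios computed. This ratio was added after the data were seen, so its p only describes these values. The difference ranged from −0.39 to −0.28 as each library was left out and was −0.68 with the full background bound subtracted. A part of the Tapbp exons overlaps an antisense gene, as given above.

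Tap1 and Tap2 encode the paired chains of the TAP transporter. Tap2 had 43.9, 19.9 and 50.4 CPM in HFD+MGIG and 78.8, 59.8 and 67.6 CPM in HFD, which on the background-limited scale were 86.1, 74.8 and 111 CPM in HFD+MGIG and 120, 92.0 and 104 CPM in HFD. The groups overlapped on that scale (log2 fold change −0.19, 95% interval −0.62 to 0.24; edgeR adjusted p = 0.561), and the fold change was 0.16 after the correction. In the fit over all filtered genes Tap2 fell by 1.11 (SE 0.387, edgeR adjusted p = 0.0263). It no longer passed when HFD 1 (0.0566) or HFD 3 (0.0655) was left out, or when genes needed 5 CPM in 3 libraries (0.0865). In HFD+MGIG 2 its level lay below the background bound of 35.6 CPM. Tap2 passed the background filter through HFD, as its mean in HFD+MGIG was 38.0 CPM with a bound of 24.2 CPM.
Tap1 had 51.8, 12.2 and 52.0 CPM in HFD+MGIG and 71.1, 60.3 and 80.3 CPM in HFD. Its 27 counts in HFD+MGIG 2 lay below the background bound of 51.5 CPM there, and with a bound at 0.334 of its mean level it is not background-limited, while Tap2 just is, at 0.236. The log2 ratio of Tap1 to Tap2 counts was 0.24, −0.69 and 0.047 in HFD+MGIG and −0.15, 0.012 and 0.25 in HFD, so the groups overlapped (difference −0.17, exact permutation p = 0.8; −1.85 with the median background subtracted).

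The immunoproteasome subunits had ratios to their constitutive counterparts that overlapped between the groups. Psmb8 encodes the chymotrypsin-like subunit LMP7, which takes the place of Psmb5 when the immunoproteasome is built. It had 107, 48.8 and 118 CPM in HFD+MGIG and 131, 113 and 122 CPM in HFD, and on the background-limited scale 210, 183 and 262 CPM in HFD+MGIG and 199, 174 and 187 CPM in HFD. HFD+MGIG 1 and 3 were above every HFD library there and HFD+MGIG 2 among them (log2 fold change 0.24, 95% interval −0.12 to 0.60; edgeR adjusted p = 0.381). The log2 ratio of Psmb8 to Psmb5 counts was 1.57, 1.11 and 1.92 in HFD+MGIG and 1.25, 1.497 and 1.61 in HFD, a difference of 0.080 that was below the SD of either group (0.41 in HFD+MGIG and 0.18 in HFD; exact permutation p = 0.9).

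Psmb9 encodes LMP2, the counterpart of Psmb6. It had 40.7, 15.8 and 38.3 CPM in HFD+MGIG and 43.4, 37.0 and 37.1 CPM in HFD, so HFD+MGIG 1 and 3 lay within the range of HFD. With a bound at 0.344 of its mean level it is not background-limited, and in HFD+MGIG 2 it lay below its bound of 34.4 CPM. The log2 ratio of Psmb9 to Psmb6 counts was −0.91, −1.31 and −0.82 in HFD+MGIG and −1.23, −1.31 and −1.04 in HFD (difference 0.18, exact permutation p = 0.4). Psmb10, the inducible subunit MECL-1 that takes the place of Psmb7, had a log2 ratio to Psmb7 of −0.12, −1.19 and −0.43 in HFD+MGIG and −0.42, −0.42 and −0.61 in HFD (difference −0.096, exact permutation p = 0.8). In HFD+MGIG 2 both lay below their bounds, Psmb10 at 13.1 CPM with a bound of 16.0 CPM and Psmb7 at 30.3 CPM with a bound of 32.2 CPM. The difference was 0.21 without that library and 0.52 with the full bound subtracted.
Against its promoter partner Tap1, Psmb9 had log2 ratios of −0.35, 0.37 and −0.44 in HFD+MGIG and −0.71, −0.71 and −1.11 in HFD. The groups did not overlap, and the difference of 0.70 had an exact permutation p of 0.1, the smallest possible, and 0.333 adjusted over the 10 ratios. This ratio too was added after the data were seen. The counts of both genes in HFD+MGIG 2, 35 for Psmb9 and 27 for Tap1, were below their bounds, and the difference was 0.45 without that library and 2.27 with the median background subtracted.

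**Figure D3:**
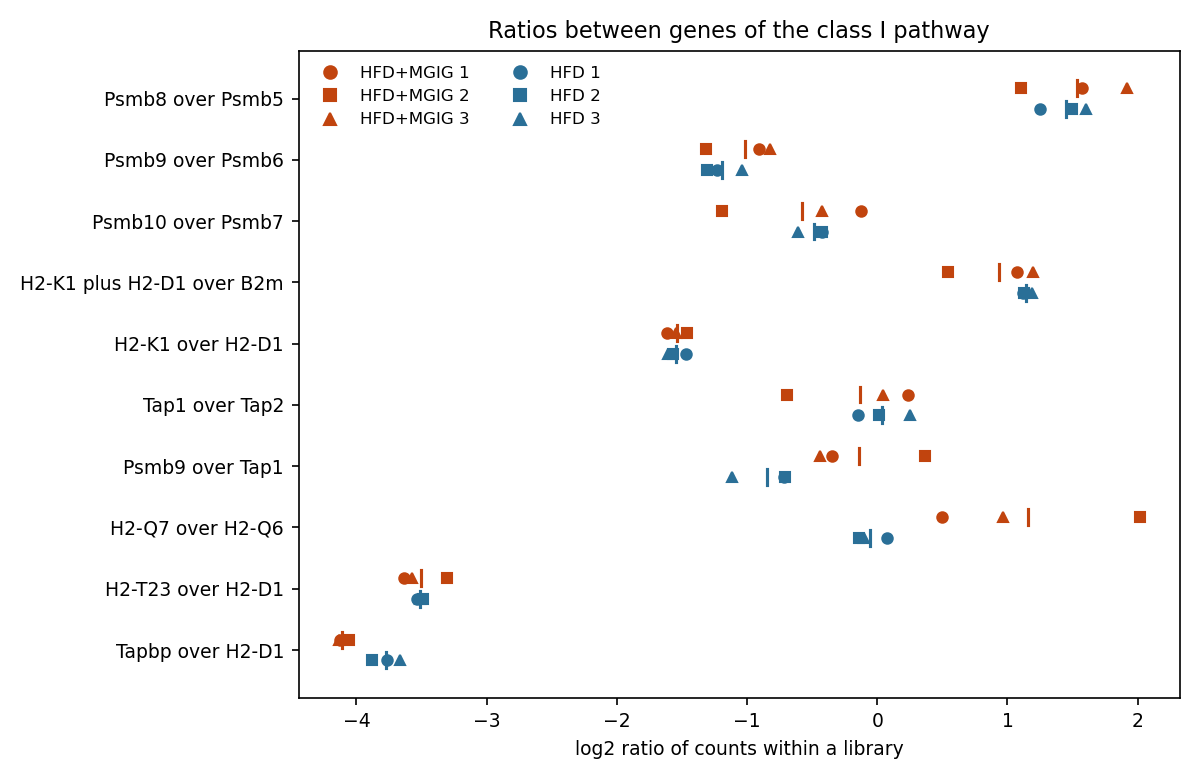
Log2 ratios of counts between genes of the pathway in each library, with HFD+MGIG above HFD for each ratio and ticks at group means. The ratios of H2-K1 to H2-D1 coincide between groups, while Tapbp over H2-D1, Psmb9 over Tap1 and H2-Q7 over H2-Q6 have groups that do not overlap. All ratios named here were added after the data were seen.

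Nlrc5, the class I transactivator, was the least abundant member. It had 17.4, 8.58 and 25.5 CPM in HFD+MGIG and 19.5, 25.6 and 34.5 CPM in HFD, with 19 counts in HFD+MGIG 2. In all 3 HFD+MGIG libraries it lay below its background bound, which was 54.4 CPM on average there, so its level in HFD+MGIG could not be told from background. In HFD it was above the bound in all 3 libraries, where the bound averaged 2.15 CPM. The log2 fold change over all filtered genes was −0.89 (edgeR adjusted p = 0.0753).

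In the fit over all filtered genes all 10 members had log2 fold changes below 0, from −1.17 for Tapbp to −0.56 for Psmb9, and 1 of 10, Tap2, passed the threshold. Of all filtered genes 17.8% were called lower and 43% higher. Without HFD+MGIG 2 the count was 6 of 10, with 22.4% of all filtered genes called lower, and without HFD+MGIG 1 it was 3, with 22.2%. Without HFD+MGIG 3 it was 2, with 8.81%, and without HFD 3 it was 0, with 8.28%. DESeq2 called 2 members lower, where it called 20.2% of all filtered genes lower and 44.6% higher, and limma voom 5, where it called 29.9% lower and 46.7% higher. The median log2 fold change of the background-limited genes in that fit was −0.91 and that of the 10 members −0.85. On the scale of the background-limited genes edgeR's quasi-likelihood test called 0 of the 7 members higher and 0 lower, beside 4.45% of all background-limited genes higher and 6.25% lower. At an unadjusted p under 0.05 the number was 0 of 7 in edgeR. DESeq2 also called 0 members, with 7.17% of the genes higher and 8.78% lower, and limma voom 0, with 8.51% higher and 9.28% lower. The members' log2 fold changes ranged from −0.27 to 0.26 with a median of 0.074, beside a median of 0.030 over all 2608 genes. The 95% intervals given above were widest for Tap2 and narrowest for B2m. H2-K1, H2-D1 and H2-T23 changed sign with library totals as the scale or without HFD+MGIG 3.

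**Figure D4:**
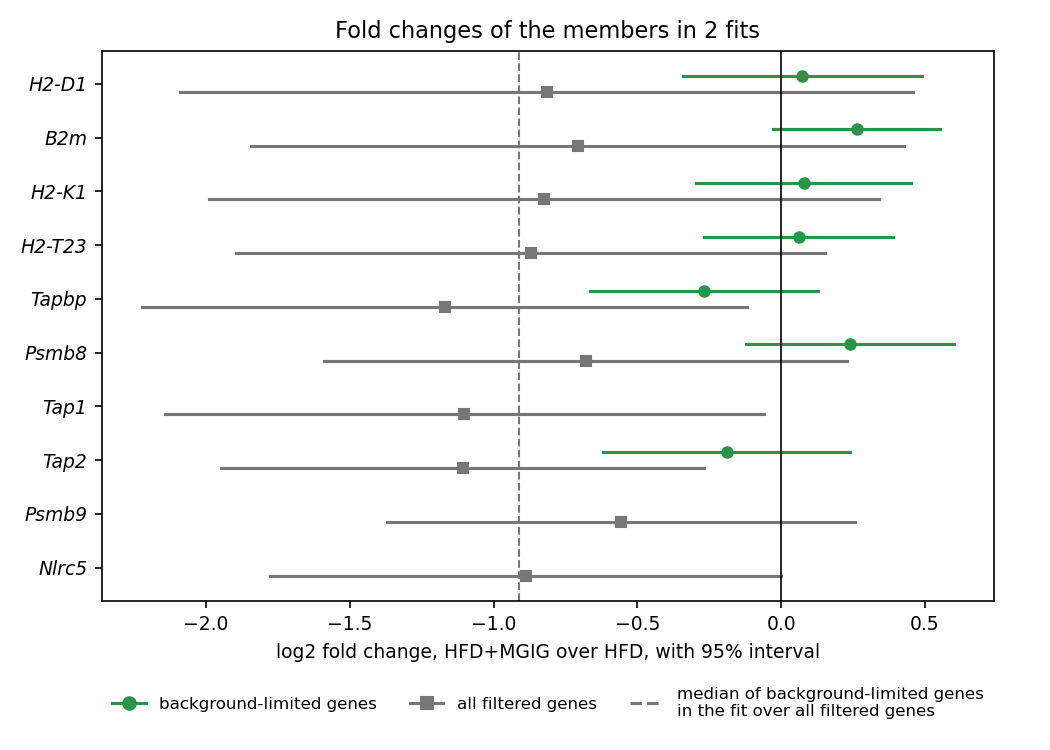
Log2 fold changes (HFD+MGIG over HFD) of the 10 members with 95% intervals in the fit over all filtered genes (squares) and, for the 7 background-limited members, on the scale of those genes (circles). The squares lie around the dashed line at −0.91, the median of the background-limited genes in that fit, and the circles between −0.27 and 0.26.

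Per kb of exon, the levels had nearly the same order in both groups. In HFD+MGIG the means were 2126 ± 608 CPM per kb for B2m, 1072 ± 485 for H2-D1, 320 ± 136 for H2-K1, 81.4 ± 30.6 for H2-T23 and 43.8 ± 19.0 for Tapbp (SD, n = 3). In HFD they were 2846 ± 129 CPM per kb for B2m, 1565 ± 127 for H2-D1, 469 ± 15.2 for H2-K1, 123 ± 11.2 for H2-T23 and 81.8 ± 11.1 for Tapbp. B2m ranked 9 and H2-D1 ranked 21 among 21793 protein-coding genes in either group. Psmb8, Tap2, Psmb9, Tap1 and Nlrc5 followed in HFD+MGIG at 27.1, 10.06, 8.64, 7.06 and 2.02 CPM per kb, and in HFD Tap1 at 12.9 stood before Psmb9 at 10.7. In HFD+MGIG the library ranges overlapped between H2-T23 and Tapbp, Tapbp and Psmb8, and each neighbour from Tap2 down, while in HFD the pair of Tap1 and Psmb9 was the one whose ranges overlapped. Exon lengths here join all annotated transcripts, retained introns included, which lowers the level per kb of genes with many such transcripts.

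Among the other class I-like heavy chain genes, H2-Q7 had the largest difference on the background-limited scale. Of 19 genes in that list 7 were background-limited, edgeR called 0 higher and 0 lower, with 2 at an unadjusted p under 0.05, and the median log2 fold change was 0.19. H2-Q7, a nonclassical heavy chain (Qa-2), had 136, 251 and 266 CPM in HFD+MGIG and 159, 158 and 150 CPM in HFD. Its log2 fold change was 1.31 (SE 0.412, edgeR adjusted p = 0.0993), which DESeq2 called (adjusted p = 0.00339), as did edgeR without HFD+MGIG 1 (0.00355). Without HFD+MGIG 2 it was 0.84 (edgeR adjusted p = 0.104), and limma voom gave an adjusted p of 0.162. H2-Q6, an adjacent near-identical gene, had 96.2, 61.9 and 136 CPM in HFD+MGIG and 151, 175 and 162 CPM in HFD.
The log2 ratio of H2-Q7 to H2-Q6 counts, also added after the data were seen, was 0.50, 2.02 and 0.96 in HFD+MGIG and 0.072, −0.14 and −0.10 in HFD. The groups do not overlap (difference 1.22, exact permutation p = 0.1, the smallest possible, and 0.333 adjusted over the 10 ratios). HFD+MGIG 2, the library with the highest silent-family share, had the highest value. H2-M3, which presents formylated peptides, had 0.47 (SE 0.156, edgeR adjusted p = 0.0979), Hfe, a regulator of iron uptake, had 0.20, and Fcgrt, the neonatal Fc receptor, had 0.19. Over all filtered genes 3 of 16 tested were higher and 3 lower, where 43% of all filtered genes were called higher and 17.8% lower. The higher ones were H2-Q1, H2-Q4 and H2-T3 and the lower ones H2-T22 (−0.93), H2-M9 (−1.22) and the lipid-presenting Cd1d1 (−1.46), all named after their values were seen. On the background-limited scale H2-T22 had 0.012 (edgeR adjusted p = 0.966) and H2-M9 −0.23 (0.651). In HFD+MGIG the mean of H2-T22 was 36.6 CPM with a bound of 21.9 CPM. Cd1d1 is not background-limited, and its mean there was 16.0 CPM with a bound of 16.5 CPM. H2-Q4 had 28.7, 65.5 and 54.2 CPM in HFD+MGIG, beside bounds of 13.6, 24.4 and 11.9 CPM, and 15.9, 18.5 and 14.8 CPM in HFD. With a bound at 0.262 of its mean level H2-Q4 is not background-limited, and 19.1% of its exon length overlaps an antisense gene. H2-Q1 had 0.119 to 0.277 CPM and H2-T3 0 counts in every HFD library. H2-T3 had 1.69, 3.61 and 3.87 CPM in HFD+MGIG, below its bounds of 14.3, 25.7 and 12.5 CPM, and H2-Q1 had 7.95, 26.2 and 20.4 CPM, beside bounds of 14.95, 26.9 and 13.1 CPM.

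**Figure D5:**
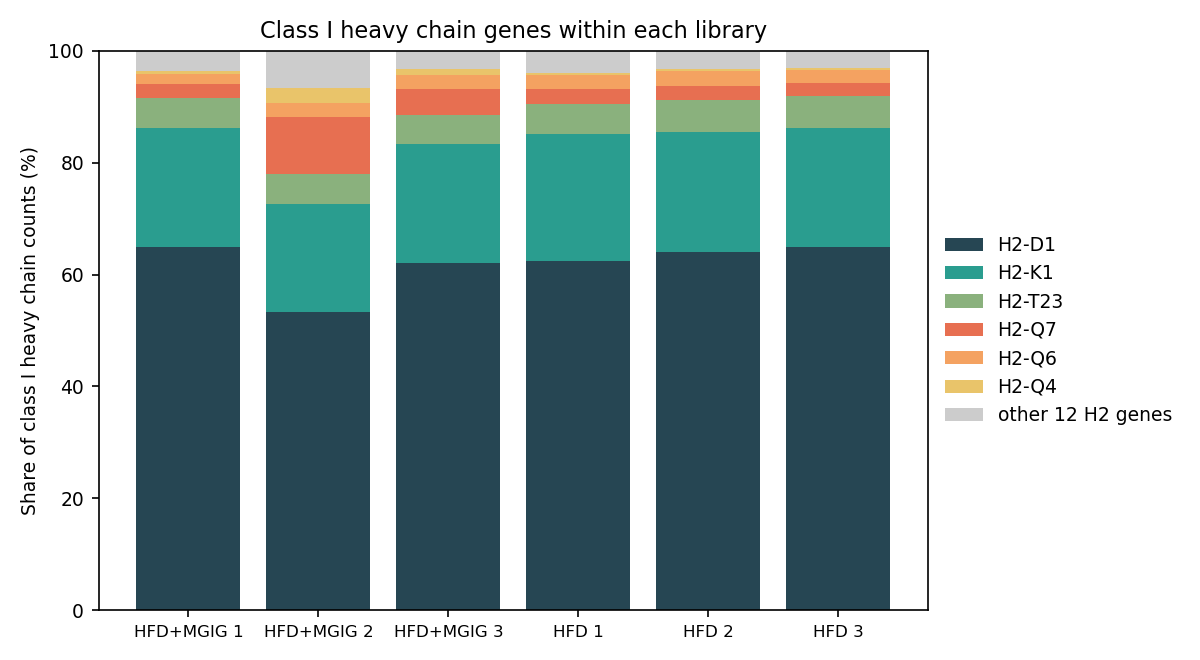
Share of each H2 heavy chain gene in the summed heavy chain counts of a library (%, stacked to 100). H2-D1 and H2-K1 make up most of every bar, and H2-Q7 takes 10.11% in HFD+MGIG 2, 2.51% and 4.77% in HFD+MGIG 1 and 3, and 2.25% to 2.68% in HFD.

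As shares of heavy chain counts, H2-D1 held 65.0%, 53.3% and 62.0% in HFD+MGIG and 62.5%, 64.0% and 65.0% in HFD, and H2-K1 held 21.3%, 19.3% and 21.3% in HFD+MGIG and 22.6%, 21.6% and 21.3% in HFD. HFD+MGIG 2 was thus the low library for both, and the other HFD+MGIG libraries lay at or within 1 percentage point of the HFD range.

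The partners of peptide loading showed no member past the threshold on the background-limited scale. Of 14 genes 7 were tested there, with 0 higher and 0 lower and 1 at an unadjusted p under 0.05 in edgeR. That was Calr, the chaperone calreticulin of the loading complex, with 330, 136 and 301 CPM in HFD+MGIG and 489, 528 and 563 CPM in HFD (log2 fold change −0.40, SE 0.147, edgeR adjusted p = 0.120). Canx, calnexin, had −0.30, Sec61b, a subunit of the translocon, 0.60, and Tapbpl, the tapasin-like peptide editor TAPBPR, 0.29. The other immunoproteasome and PA28 genes had 0 of 5 past the threshold, with 0.92 (SE 0.291, edgeR adjusted p = 0.0863) for the assembly factor Pomp, which DESeq2 (adjusted p = 0.0185) and limma voom (0.0453) called, and 0.44, −0.14 and 0.15 for the activator subunits Psme2, Psme3 and Psme1. Without HFD+MGIG 2, Pomp had 0.57, Psme2 0.18 and Psme1 −0.086, and without HFD 3 Psme3 had −0.057. Pomp passed the background filter through HFD, where it averaged 71.7 CPM with a bound of 1.32 CPM. In HFD+MGIG its mean was 79.3 CPM with a bound of 33.4 CPM, above the 0.25 limit. The DESeq2 and limma voom calls of Pomp are therefore not made on a gene with little background in HFD+MGIG. The constitutive subunits Psmb5, Psmb6 and Psmb7 had 0.10, 0.12 and 0.11, 0 of 3 past the threshold.

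In edgeR, Jak2 passed the threshold on the background-limited scale, a call that several alternatives did not keep. This kinase of the interferon-gamma receptor had 62.4, 30.3 and 70.6 CPM in HFD+MGIG and 130, 149 and 161 CPM in HFD, and on the background-limited scale 122, 114 and 156 CPM in HFD+MGIG and 198, 228 and 248 CPM in HFD. It fell by 0.77 (SE 0.165, edgeR adjusted p = 0.0232), 1 of 5 tested of 9 receptor and kinase genes. The call was lost without HFD+MGIG 1 (0.0746) or without HFD 1, 2 or 3 (0.0528, 0.0846 and 0.0760), and with the full background bound subtracted (0.619). In HFD+MGIG 2 its 30.3 CPM lay below the bound of 47.3 CPM. Jak2 passed the background filter through HFD, where it averaged 147 CPM with a bound of 1.28 CPM. In HFD+MGIG its mean was 54.4 CPM with a bound of 32.2 CPM, above the 0.25 limit. The call is therefore no evidence of a fall. Jak1, its partner kinase, had −0.33 and the type I interferon receptor chains Ifnar2 and Ifnar1 had 0.25 and −0.17. Of 18 transcription factors of class I genes 2 were background-limited and 0 passed, Irf1, an interferon-induced activator, with −0.27 and Rela, a subunit of NF-kappaB, with −0.25. Of 10 receptor genes, 0 of 2 tested passed: Pirb, an inhibitory receptor that binds class I, had 0.030, and the related inhibitory receptor Lilrb4a had −0.0935. Of the exon length of Lilrb4a, 35.3% overlaps another gene on the same strand.

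Of the background-limited genes, those whose log2 levels over the 6 libraries were most like the mean of H2-K1, H2-D1 and B2m were Naaa, Osgin1, Sqstm1, Il1a, Eif4a1 and Flcn, with Pearson's r from 0.950 to 0.981. Among the members themselves r with that mean was 0.912 for H2-T23 and 0.804 for Psmb8, and 0.398 and 0.213 for Tapbp and Tap2. Of the genes that make up the mean, H2-K1 and H2-D1 had r of 0.932 and 0.929, and B2m 0.444. These describe 6 points that share library depth and background, and carry no test.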

How the data were processed

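The values deposited by the authors are estimated counts, 1 per gene and library, of which a part are fractional. Build mm10 and the tools HISAT2, StringTie and fastp are named by the submitters' processing notes. Per the labels' protocols, total RNA was amplified with SMART-Seq v4 chemistry. The sources used here do not give versions, strand or how counts were made. Counts were rounded to whole numbers. Gene models were GENCODE M21 for mm10, matching 51933 of 57180 IDs, and promoters were RefSeq's (GRCm38.p6). Only the design text mentions sorting; the protocol in the labels speaks of RNA from tissue.

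Differences were tested with edgeR 4.0.16 in R 4.3.3 (quasi-likelihood fit, TMM factors, robust, group as the only term, filterByExpr) with Benjamini-Hochberg adjustment over all genes of a fit and a threshold of 0.05. Background-limited genes are protein-coding, lie outside the silent families (Olfr, Vmn1r, Vmn2r, Tas2r, Krtap, Defb) and have at least 2 exon blocks. SEs were derived from the F statistic. Ratios used a pseudocount of 0.5 counts. DESeq2 1.42.0, limma voom (limma 3.58.1), other scalings and filters, background subtraction and each library left out were alternatives. The fits were tested on simulated data. Members, lists and the 2 fits were chosen with earlier results of these data known. List genes named are up to 4 with the smallest p in the background-limited fit; ratios beyond the 4 of Psmb8, Psmb9, Psmb10 and the heavy chains to B2m were added after the data were seen.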

Additional observations from a re-analysis of the deposited data

How the results depend on the processing

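On the background-limited scale 0 members passed in either direction under any of the 15 alternatives. Where a cause is not built into an alternative, it was not tested. With library totals as the scale, H2-K1, H2-D1, H2-T23 and Pirb had log2 fold changes of −0.0141, −0.0179, −0.0306 and −0.0591, and 83 genes were called higher and 199 lower, against 116 and 163. Corrected for GC content and exon length, B2m had −0.25, Tap2 0.16, Tapbp 0.0214, Psmb6 −0.0808, Psmb7 −0.0329, Rela 0.0539 and Ifnar1 0.0593. With the median background subtracted, Psmb7 had −0.0057, Lilrb4a 0.0152 and the Psmb9 to Psmb6 ratio −0.23. With the full bound subtracted, Psmb7 had −0.92, Tapbpl −0.52, Lilrb4a 0.32 and the ratios of Psmb9 to Psmb6 and Psmb10 to Psmb7 −2.01 and 0.52. In that setting edgeR called 0 genes higher and 0 lower, with 4 of the 7 members at an unadjusted p under 0.05. Of the 7 members 5 had log2 fold changes above 0 there, with a median of 0.42 beside −0.18 over the whole set. A bound of at most 0.1 of the mean level left 1010 genes, 38 higher and 67 lower. DESeq2 and limma voom called 187 and 222 genes higher. Leaving out 1 library gave 3 to 156 higher and 44 to 189 lower genes, with 3 and 44 without HFD 1, 19 and 55 without HFD 2, 17 and 92 without HFD 3, 108 and 88 without HFD+MGIG 1 and 71 and 112 without HFD+MGIG 3. It gave H2-K1 from −0.0563 to 0.21, H2-D1 from −0.059 to 0.23, H2-T23 from −0.0397 to 0.14, Psme1 from −0.0859 to 0.29, Lilrb4a from −0.27 to 0.0792, Pirb from −0.0954 to 0.20 and the Psmb10 to Psmb7 ratio from −0.33 to 0.21. Over all filtered genes, members called lower numbered 1, where 17.8% of all genes tested were called lower. They numbered 2 with DESeq2's size factors (17.2% of all genes tested), 2 with DESeq2 (20.2%) and 4 with no filter (10.9%). With at least 5 CPM in 3 libraries they numbered 0 (10.6%), and with limma voom 5 (29.9%). With 1 library left out they numbered 0 to 6 (8.28% to 22.4%). Genes called lower numbered 4109, against 2426 with library totals, 1572 with the CPM minimum, 6888 with limma voom and 1909 to 5169 with 1 library left out. Genes called higher numbered 9902, against 10429 with library totals, 18271 with no filter and 4581 with the CPM minimum. Deviations of same-numbered libraries from their group means had correlations of −0.126, 0.113 and 0.219 among background-limited genes. Over all filtered genes they were 0.048, 0.259 and 0.079. The labels name no pairing, and such values cannot show whether there was any. With the replicate number as a block, 4 members were lower over all filtered genes, where 18.7% of the genes were, and 0 on the background-limited scale. Depth limits Tap1, Psmb9 and Nlrc5, with 27, 35 and 19 counts in HFD+MGIG 2.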
